A study of Rattus norvegicus with 4 samples.

Results

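Described here is the middle of 3 doses of hydrogen peroxide (H2O2) given to NRK-52E cells, an epithelial line from rat kidney tubule. The array of cells exposed to 0.006% H2O2 was compared with the array of control cells, and genes were picked out whose largest difference from the control fell at 0.006% and not at 0.003 or 0.009%. A member gene had a gene symbol, differed at least 2-fold from the control at 0.006%, and differed less at both other doses. This rule gave 409 member genes, 272 higher and 137 lower than the control, of 5640 named genes compared at this dose and 8963 named genes on the array. With unnamed transcripts included there were 1667 member features of 20677 compared. All 4 cultures were grown to confluence, exposed for 1 h to medium holding 0, 0.003, 0.006 or 0.009% H2O2, washed, and kept for 12 h in medium without serum before total RNA was taken. The control cells went through the same serum-free steps at 0%. The series asks which molecules from dying cells make the cells around them proliferate. Each dose was read on 1 array from 1 culture, so there was no replicate, no test across cultures was possible, and every difference below is a description of a pair of arrays.

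H2O2 crosses membranes and oxidises thiols of proteins. Cells answer with several transcriptional programmes: the NRF2 pathway, which makes antioxidant enzymes; the heat shock response, which makes chaperones; the integrated stress response, in which ATF4 directs genes for amino acid supply while general translation is reduced; the p53 pathway, which halts the cell cycle; and the AP-1 factors, which follow MAP kinase signalling. Proximal tubule cells meet such oxidant stress during loss and return of blood flow, and those that survive can release growth factors and inflammatory mediators. Interferon-stimulated genes form a separate antiviral programme that also answers nucleic acids set free inside damaged cells.

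Each array held 43379 noncontrol spots, with 51.8 to 54.9% of probes reading well above background. The signals below are scaled so that the 75th percentile of each array is 100, and a log2 difference is the scaled log2 signal of a dose minus that of the control. The error given after ± is the spot error of the scanner software, carried over both arrays. It describes the reading of spots only, and its median over the named genes was 0.20. The arrays shared 1 slide and were laid out by rising dose, so position on the slide cannot be told apart from dose. Signals of different genes come from different probes and are not compared. Of the kidney epithelial markers, Krt8, Krt18 and Cdh16 were well above background on all 4 arrays, while Epcam, Cldn1 and Pax8 were not on any. Of the markers of other cells, the fibroblast genes Col1a2, Col3a1 and Pdgfrb, the macrophage genes Cd14, Cd68 and Tyrobp and the endothelial gene Kdr were well above background on all 4 arrays. Dcn, Lum, Thy1, Pecam1, Emcn and Itgam were not on any. The summed signal of the fibroblast markers was 3199, 920, 1322 and 1962 from the control to 0.009%, and that of the macrophage markers was 4208, 2707, 2252 and 2353, most of it from Cd14 (3967, 2419, 1845 and 1904). Other markers rose with dose: Cd68 had 223, 271, 387 and 412, Tyrobp 9.42, 10.6, 19.6 and 20.2, and Kdr, lowest in the control, 20.2, 24.6 and 32.2 at the 3 doses. The part of other cells in the results was not tested. In such bulk RNA, fewer cells of a type and less RNA per cell cannot be told apart.

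At 0.006%, 834 of the 5640 named genes were at least 2-fold higher than the control, which is 14.8%, and 453 were at least 2-fold lower, which is 8.03%. Of the 834 higher genes, 272 (32.6%) were largest at 0.006%, 337 at 0.003% and 225 at 0.009%. Of the 453 lower genes, 137 (30.2%) were largest at 0.006%, 258 at 0.003% and 51 at 0.009%, and 7 could not be ordered. The higher members had median log2 differences of 1.41, 1.58 and 1.26 at 0.003, 0.006 and 0.009%. For the lower members these medians were -1.10, -1.31 and -1.03. Both other doses were also at least 2-fold from the control for 147 of the 272 higher and 59 of the 137 lower members, and neither was for 66 and 38.

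The distance between the middle dose and the next was short in most members. The median margin of the 0.006% difference over the nearer of the other doses was 0.14 in both directions, and 197 of the 272 higher and 104 of the 137 lower members lay within 1 spot error of at least 1 other dose. Only 22 members lay more than 2 spot errors beyond both other doses, 19 higher and 3 lower, and 13 of these were well above background on all 4 arrays. Closest to the limits of the rule, Ube2f was included at a log2 difference of 1.001 and Slc6a6 was left out at -0.999. Nip7 was included with a margin of 0.0011, and Npm1 was left out with a margin of -6.9e-05 against 0.003%.

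**Figure D1:**
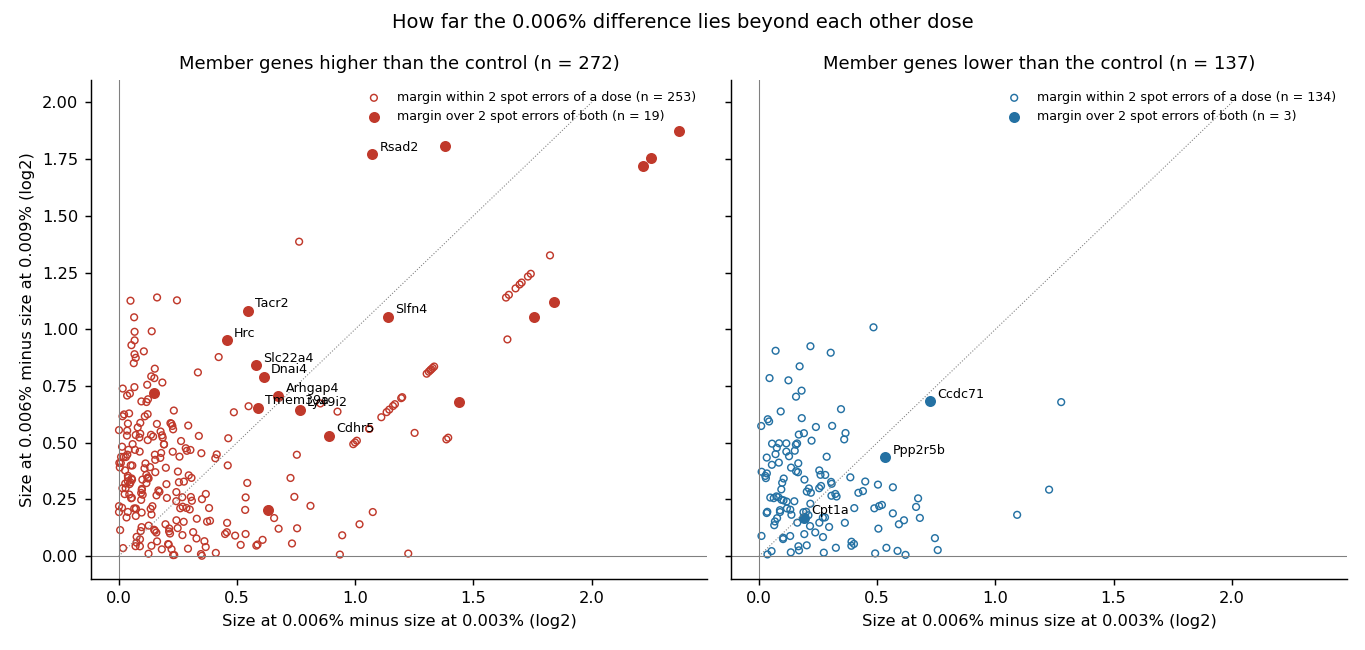
Size of the log2 difference from the control at 0.006% minus its size at 0.003% (horizontal axis) and at 0.009% (vertical axis), for the 272 higher (red) and 137 lower (blue) member genes. Filled points are the 22 genes beyond both other doses by more than 2 spot errors, with names where all 4 arrays were well above background; points in slanted rows are genes not above background at the other doses, and most open points lie close to an axis.

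Rsad2 and Slfn4, both known as interferon-induced, had the widest margins among the members read on all 4 arrays. Rsad2, which encodes viperin, an interferon-induced enzyme that makes an antiviral nucleotide, had a scaled signal of 19.8 in the control and 49.5, 104 and 30.5 at 0.003, 0.006 and 0.009%. Its log2 difference at 0.006% was 2.40 ± 0.22, against 1.32 and 0.62 at the lower and higher dose, with a margin of 1.07. The profile is a peak with a lower flank on each side, not a plateau. Slfn4, a Schlafen family gene known to be induced by interferon in myeloid cells, followed closely. Its signal was 11.2, 26.2, 57.6 and 27.7 from the control to 0.009%, a log2 difference of 2.36 ± 0.26 at 0.006% with a margin of 1.06. Normexp background correction, which adds an offset of 50 to each signal and so makes differences of dim probes smaller, gave 1.36 for Rsad2 and 1.10 for Slfn4.

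Cxcl10, an interferon-induced chemokine that draws T cells, had signals of 31.9, 352, 388 and 195, so the lower and middle doses were close and the highest dose lower. Its log2 difference was 3.60 ± 0.21 at 0.006% with a margin of 0.14 over 0.003%, and 2.70 with normexp. Usp18, the protease that removes the ubiquitin-like modifier ISG15, had signals of 8.74, 10.9, 20.8 and 13.4. Its log2 difference of 1.25 ± 0.35 fell under 2-fold with each of the 4 other scalings and background corrections tried. Oas1i, of the family that makes the activator of RNase L, was well above background only at 0.003 and 0.006%, with 9.03 and 13.2, and was under 2-fold (0.39) with normexp.

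The programme as a whole did not share this peak. Of 25 genes in the interferon list, 15 could be compared at 0.006%, of which 3 were at least 2-fold higher (Cxcl10, Rsad2 and Usp18) and 2 lower. Irf9, a part of the factor that carries the interferon signal to the nucleus, was among the lower ones, with a log2 difference of -1.06 at 0.006%. The list's median was 0.27, beside -0.007 for all named genes. With array median scaling these medians were -0.04 and -0.32, and with spike-in scaling -0.30 and -0.58, since a scaling moves all genes alike.

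The promoters of Rsad2 and Cxcl10 are shown because both genes were members and both windows hold the interferon-stimulated response element, a motif added to the search after the values were seen. They are RefSeq sequences on the GRCr8 assembly, from 250 bases before to 50 after the start of the gene, printed along the gene's strand. Capitals mark the response element and, in Cxcl10, also an AP-1 match (TGANTCA). The Rsad2 window is chr6:48788071-48788370 on the minus strand, with the match 147 to 138 bases before the start. The Cxcl10 window is chr14:15988816-15989115 on the plus strand, with the element 243 to 234 and the AP-1 match 96 to 90 bases before the start.
Rsad2: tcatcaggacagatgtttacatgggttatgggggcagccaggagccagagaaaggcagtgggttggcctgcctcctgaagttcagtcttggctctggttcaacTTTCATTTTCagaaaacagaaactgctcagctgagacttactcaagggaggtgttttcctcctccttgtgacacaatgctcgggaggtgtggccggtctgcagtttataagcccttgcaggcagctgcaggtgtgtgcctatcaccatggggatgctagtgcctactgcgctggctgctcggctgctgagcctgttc
Cxcl10: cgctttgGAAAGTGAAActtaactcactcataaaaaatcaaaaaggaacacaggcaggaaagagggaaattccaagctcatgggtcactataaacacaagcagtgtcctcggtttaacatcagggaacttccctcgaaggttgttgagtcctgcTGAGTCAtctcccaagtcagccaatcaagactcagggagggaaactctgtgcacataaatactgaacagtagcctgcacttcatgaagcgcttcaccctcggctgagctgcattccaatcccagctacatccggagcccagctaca

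Over both strands, the response element was found in 14 of 229 promoters of higher members (6.11%), in 7 of 456 promoters of the other genes at least 2-fold higher (1.54%) in 3.32% of 4613 promoters of compared genes and in 3.77% of 27457 rat promoters. The higher members with the motif were Rsad2, Cxcl10, Oas1i, Vegfa, Serpinb2, Casp12, Gzma, Nip7, Nol10, Garin1b, Plekha4, Serp1, Tpp2 and Zeb2. The window of Slfn4 held no match. A match is a description of letters in this window and not a bound site.

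The other genes that peaked beyond 2 spot errors shared no single role. Tacr2, the receptor of neurokinin A, had the largest difference among those measured on all arrays, with signals of 6.81, 84.1, 123 and 58.1. Its log2 difference was 4.17 ± 0.34 at 0.006%, an 18.0-fold difference, against 3.63 and 3.09 at the other doses. From a control signal this near background, normexp gave a 3.99-fold difference. Tmem39a, a membrane protein of the endoplasmic reticulum (ER), had 88.1, 223, 335 and 213, a log2 difference of 1.93 ± 0.21. In Tmem39a, 0.003 and 0.009% were nearly level and only the middle dose stood above them.

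Ly49i2, a lectin-like receptor of the kind known from natural killer cells, had signals of 15.1, 38.4, 65.3 and 41.7, with a log2 difference of 2.11 ± 0.24, or 1.01 with normexp. Arhgap4, a GTPase-activating protein, had 11.1, 19.5, 31.1 and 19.0. Dnai4, a part of the axonemal dynein of cilia, had 9.01, 17.8, 27.2 and 15.7. Both were at least 2-fold from the control at the middle dose alone. The same held for Slc22a4, a transporter of ergothioneine, at 9.04, 12.4, 18.6 and 10.4, for Cdhr5, a cadherin of the brush border, at 12.3, 17.3, 32.1 and 22.2, and for Hrc, a calcium-binding protein of the sarcoplasmic reticulum, at 20.1, 34.5, 47.4 and 24.5. The signals of these genes lay under the 75th percentile of the array. With normexp all 5 fell under 2-fold, from 1.33-fold in Slc22a4 to 1.55-fold in Hrc, and Slc22a4 and Cdhr5 were then largest at 0.009%.

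In 9 of the 19 higher genes with a wide margin, at least 1 array was not well above background, so the difference is a bound. Cyren, a regulator of DNA end joining, Tfap2c, a transcription factor of AP-2 type, and Mmp12, an elastase of macrophages, were well above background at 0.006% alone. Their differences there were at least 5.38-fold, 4.96-fold and 4.84-fold. Kpna4, a nuclear import receptor, was at least 5.14-fold higher, Elf3, an epithelial Ets factor, at least 3.73-fold, Ccdc65, a ciliary protein, at least 6.53-fold, and Olr920, an olfactory receptor, at least 3.09-fold. With normexp all 7 were under 2-fold, at 1.78-fold for Cyren, 1.75-fold for Tfap2c, 1.88-fold for Mmp12 and Kpna4, 1.74-fold for Elf3, 1.90-fold for Ccdc65 and 1.44-fold for Olr920. In all, 30 members were well above background on the 0.006% array alone, with signals of 11.8 to 30.6. The background filter itself places the largest difference of such genes at 0.006%. Of these 30, 9 were olfactory receptor genes, a group that made up 117 of the 5640 genes compared. The 30 had a median signal of 14.7 beside 166 for all genes compared. With groups so unlike in brightness, the count says nothing about the dose.

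Faslg, the ligand of the death receptor Fas, was not well above background in the control and had 35.7, 39.6 and 24.1 at the 3 doses, at least 6.96-fold higher at 0.006%, or 2.04-fold with normexp. Ptgs2, the inducible cyclooxygenase that makes prostaglandin precursors, was likewise not well above background in the control and had 92.4, 143 and 124. It was at least 25.2-fold higher at 0.006%, with a margin of 0.21 over 0.009%, or 4.62-fold with normexp. Both genes were already high at the lowest dose. Of 9 genes of prostaglandin synthesis and reception compared, Ptgs2 was the only member. Ptgr1, a reductase that inactivates prostaglandins, was also higher, at least 6.11-fold (1.97-fold with normexp), but was highest at 0.003%.

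**Figure D2:**
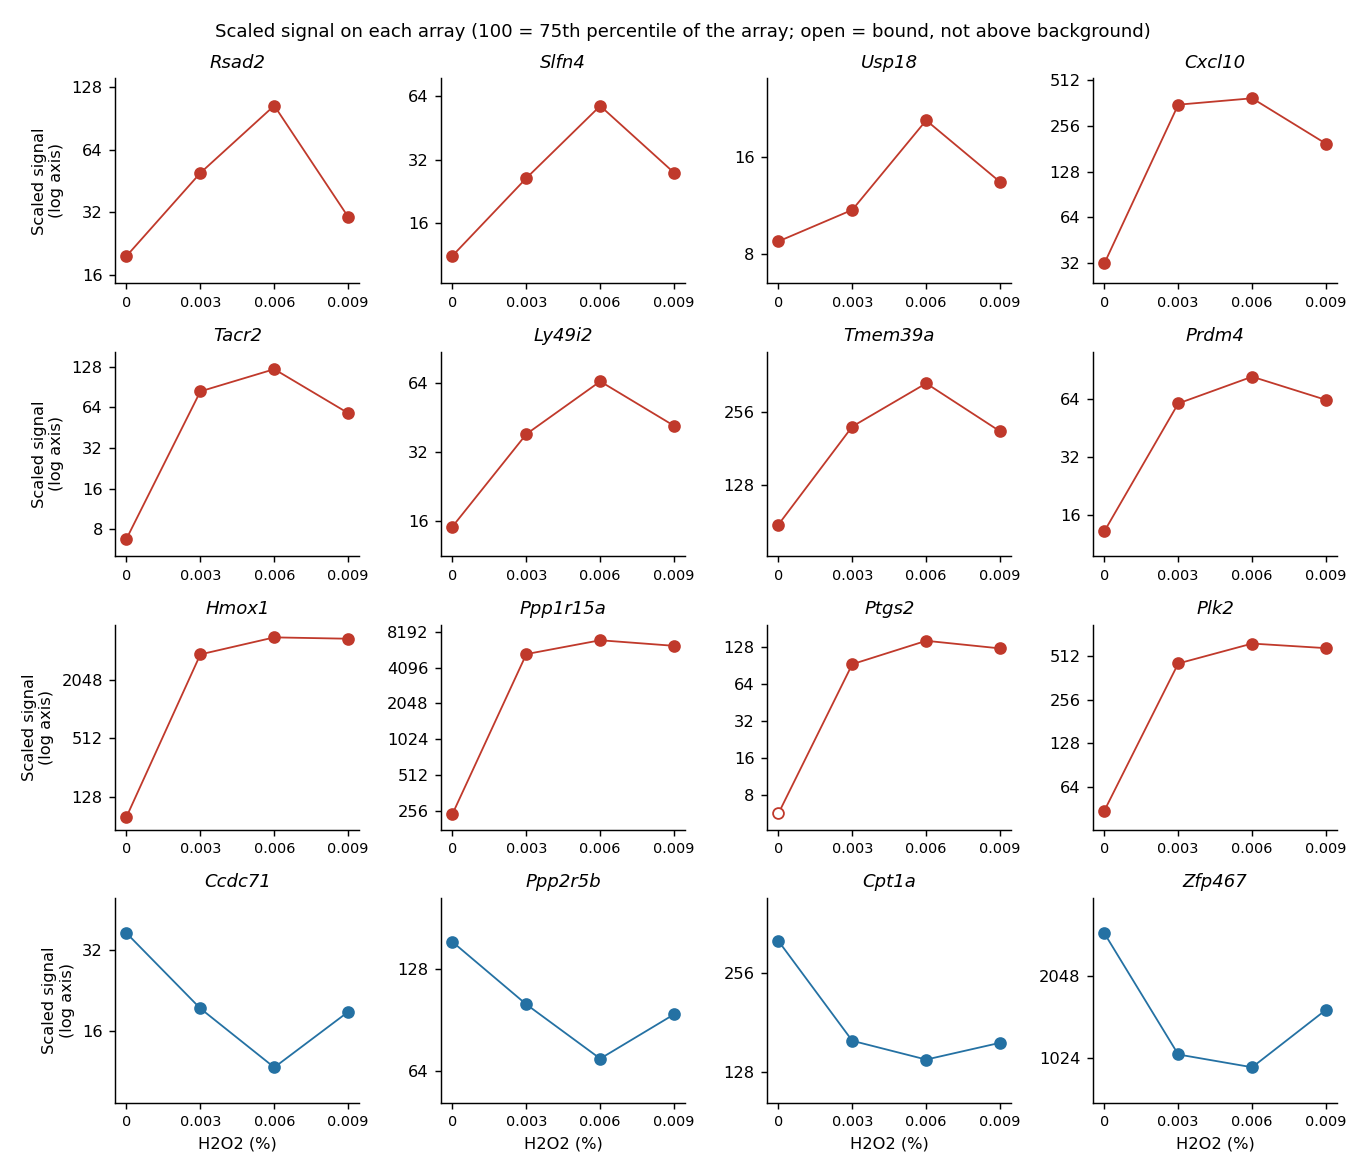
Scaled signal (logarithmic axis, 100 is the 75th percentile of the array) against H2O2 dose for 16 member genes, 12 higher (red) and 4 lower (blue); each point is 1 array, and an open point is a bound where the probe was not well above background. Rsad2, Slfn4 and Tmem39a peak at 0.006% with a lower flank on each side, Hmox1 and Ppp1r15a stay near their peak at 0.009%, and Ccdc71 and Ppp2r5b have their lowest signal at 0.006%.

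The largest differences of all members were in stress genes whose 3 doses lay close together. Fosl1, an AP-1 subunit of the Fos family, had a signal of 10.2 in the control and 3840, 4469 and 2977 at 0.003, 0.006 and 0.009%, and its log2 difference at 0.006% was 8.78 ± 0.27, a 438-fold difference, or 97.7-fold with normexp. Hmox1, the NRF2-driven enzyme that breaks down heme, had 79.0, 3727, 5580 and 5404, a log2 difference of 6.14 ± 0.07. Osgin1, a growth inhibitor induced by oxidants, had 23.8, 460, 538 and 362, a log2 difference of 4.50 ± 0.22, or 3.31 with normexp. Of Hmox1 the normexp value was 5.54. In all 3 genes each dose was far above the control, and the order of the doses rests on a margin of at most 0.23.

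The integrated stress response was the list with the highest median at this dose, 2.27, beside -0.007 for all named genes. Of the list's 28 genes 20 could be compared, 16 were at least 2-fold higher, none was lower, and 11 were members. For this and each list below, 14.8% of all named genes were at least 2-fold higher, and 32.6% of these were members. For lower genes the shares were 8.03 and 30.2%. The list's members include the pathway's factors Atf4, Atf5, Ddit3 and Cebpb, its feedback genes Ppp1r15a and Trib3, and the amino acid transporter pair Slc7a5 and Slc3a2. Ppp1r15a, the phosphatase subunit that lets translation resume, had signals of 241, 5311, 6940 and 6230, a log2 difference of 4.84 ± 0.20. Trib3, a pseudokinase that restrains ATF4, had 558, 12642, 13646 and 8902, a log2 difference of 4.61 ± 0.20.

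Ddit3, the pro-apoptotic factor CHOP, had 357, 3257, 3381 and 1775, and its difference of 3.24 ± 0.20 was near that at 0.003% (3.19) and above that at 0.009% (2.31). Atf4 itself kept more of its signal at the highest dose, with 5658, 31586, 36571 and 35300. Atf3, the one gene of the list with a larger difference than Ppp1r15a, was no member, since its signals of 155, 4417, 6588 and 8078 were highest at 0.009%. Slc7a5, the light chain of the large neutral amino acid transporter, was not well above background in the control and at least 15.8-fold higher at 0.006%, or 3.38-fold with normexp. Its partner Slc3a2 had 639, 5747, 6262 and 3878.

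How many of these genes peaked at the middle dose depended on the scaling. The 11 members of this list were 10 with quantile normalization, 4 with array median scaling, 9 with normexp background correction and 2 with spike-in scaling, while 13 to 15 genes stayed at least 2-fold higher in each. The median of the list was 2.10 with quantile normalization, 1.95 with array median scaling, 1.70 with spike-in scaling and 1.64 with normexp, beside -0.11, -0.32, -0.58 and 0.01 for all named genes. Of the aminoacyl tRNA synthetases, which ATF4 also directs, 5 of 11 compared were at least 2-fold higher, and Yars1 and Eprs1 were members. Yars1, for tyrosine, had 317, 1379, 1441 and 799.

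The promoters of Ppp1r15a and Trib3 are shown as those of the pathway's feedback pair, and that of Plk2 because it holds the same cyclic AMP response element (CRE, TGACGTCA) as Ppp1r15a at the same distance from its start. Capitals mark the CRE in Ppp1r15a and Plk2, an AP-1 match in Ppp1r15a, and in Trib3 a match to the composite element that ATF4 binds with a C/EBP partner (TGATGNAAN), which lies on the opposite strand. The windows are again RefSeq sequences on GRCr8. Ppp1r15a is at chr1:105139547-105139846 on the minus strand, Trib3 at chr3:161275484-161275783 on the minus strand and Plk2 at chr2:43702286-43702585 on the plus strand. The CRE lies 66 to 59 bases before the start in both Ppp1r15a and Plk2, and the Trib3 match 22 to 14 bases before the start.
Ppp1r15a: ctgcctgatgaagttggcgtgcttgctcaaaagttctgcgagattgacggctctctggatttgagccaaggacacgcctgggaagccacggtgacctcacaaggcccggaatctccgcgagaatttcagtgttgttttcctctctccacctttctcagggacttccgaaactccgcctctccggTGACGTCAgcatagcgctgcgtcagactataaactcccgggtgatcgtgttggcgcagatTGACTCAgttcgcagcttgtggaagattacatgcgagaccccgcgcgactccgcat
Trib3: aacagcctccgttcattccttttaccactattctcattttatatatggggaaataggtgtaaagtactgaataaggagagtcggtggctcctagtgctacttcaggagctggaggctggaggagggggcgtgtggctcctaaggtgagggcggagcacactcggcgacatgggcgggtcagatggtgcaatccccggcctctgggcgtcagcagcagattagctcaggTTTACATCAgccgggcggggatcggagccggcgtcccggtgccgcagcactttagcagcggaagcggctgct
Plk2: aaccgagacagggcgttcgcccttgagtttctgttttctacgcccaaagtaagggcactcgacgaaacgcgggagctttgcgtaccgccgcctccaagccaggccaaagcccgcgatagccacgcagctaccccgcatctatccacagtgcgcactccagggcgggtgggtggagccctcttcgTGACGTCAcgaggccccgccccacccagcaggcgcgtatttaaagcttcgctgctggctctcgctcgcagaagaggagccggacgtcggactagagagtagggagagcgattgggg

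The CRE was found in 12 of 229 promoters of higher members (5.24%), in 23 of 456 of the other higher genes (5.04%) and in 1.91% of all rat promoters. Over the compared genes the CRE was found in 3.23%, the ATF4 composite element in 2.32% and AP-1 in 5.72%. For the ATF4 composite element the first 3 shares were 5.24, 3.95 and 3.80%, and for AP-1 they were 9.17, 6.14 and 7.33%. The AP-1 and CRE patterns differ by 1 inserted base, so neither contains the other. The antioxidant response element (TGACNNNGC) was found in 17.9, 15.1 and 12.2%, beside 17.1% of lower members and 693 of the 4613 promoters of compared genes. The metal response element (TGCNCNC) was found in 54.6, 60.7 and 50.1%, beside 58.6% of lower members and 60.0% of compared genes. The heat shock element was found in 1.31, 1.54 and 0.736%. The ER stress element was found in 0.873, 0.439 and 0.0765%, and its 2 matches among members were Hspa5 and Hsp90b1. Of the 8 motifs searched, only the interferon element was added later.

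Of 14 ER chaperones and genes of the unfolded protein response compared, 7 were at least 2-fold higher, none lower, and 5 were members. Hspa5, the chaperone BiP, had signals of 16184, 45229, 50962 and 41867, a log2 difference of 1.65 ± 0.20. Dnajb9, its co-chaperone, had 262, 1909, 2292 and 1613, a log2 difference of 3.13 ± 0.20. Herpud1, a factor of ER-associated degradation, had 1621, 8969, 9956 and 5779. Hsp90b1, the ER form of HSP90, had 2736, 5630, 6969 and 5488, and Hyou1, another ER chaperone, completed the members. The count of members was 3 with array median scaling and with quantile normalization, 4 with normexp and 0 with spike-in scaling.

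Heat shock proteins and co-chaperones held genes largest at the middle dose and genes with a further increase. Of 17 compared, 11 were at least 2-fold higher and 5 were members: Hsp90aa1, Hspb8, Dnaja1, Dnajb4 and Hspd1, the last a chaperonin of mitochondria. The count of members was 2 with array median scaling, 4 with spike-in scaling, 3 with quantile normalization and 5 with normexp. Hsp90aa1 was level between 0.006 and 0.009%, at 32246 and 32011. Hspb8, a small heat shock protein that works with Bag3 in autophagy of damaged proteins, had 102, 649, 797 and 622, with a log2 difference of 2.96 ± 0.20. Hspa1a, an inducible chaperone of the HSP70 family that its near-identical copy Hspa1b cannot be told from here, had 12.4, 538, 1959 and 4598 and so was far from its highest value at 0.006%. Hsph1 and Zfand2a had the same order as Hspa1a.

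Of 19 NRF2 targets compared, 8 were at least 2-fold higher and the median was 0.80, beside 0.90 at the lowest dose and 0.51 at the highest. Of these 8 only Hmox1 and Osgin1 were largest at 0.006%, a share under the 32.6% of all higher named genes. Counting differences of any size, 4 of the 19 were largest there. Txnrd1, thioredoxin reductase, had 632, 6190, 4801 and 2755 and was highest at 0.003%. Of 16 enzymes that remove peroxide or superoxide, only Prdx6 was at least 2-fold higher, or 1.94-fold with normexp, and none was a member. Catalase (Cat) had signals of 23.7, 40.3, 42.0 and 29.8.

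Among p53 targets, 8 of 14 compared were at least 2-fold higher and Cdkn1a, Gadd45a, Ccng1 and Plk2 were members. The list's median was 1.23, beside 1.30 at the lowest dose and 0.76 at the highest. Plk2, a kinase of the centrosome cycle, had signals of 43.6, 455, 625 and 581, a log2 difference of 3.84 ± 0.21 and an 8.02-fold difference with normexp. Gadd45a, a growth arrest gene, had 321, 2202, 2870 and 2478, a log2 difference of 3.16 ± 0.20. Cdkn1a, the inhibitor p21 of the cyclin-dependent kinases, had 269, 4574, 4588 and 3499, so 0.003 and 0.006% were level on this probe. Second probes of Cdkn1a (log2 differences of at least 4.55, 3.61 and 2.80 at the 3 doses) and Ccng1 (2.36, 1.98 and 1.51) were largest at 0.003%. Bax, Fas and Zmat3, also p53 targets, lay within 0.2 of the control at 0.006%.

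AP-1 and immediate early genes were high 12 h after the exposure. Of 20 compared, 16 were at least 2-fold higher, the median was 1.88, and Fosl1, Mafk, Myc, Nr4a2 and Nr4a3 were members. The list's median was 1.29 at the lowest dose and 2.01 at the highest, so as a group it was not largest at the middle dose. Myc, the growth factor-induced regulator of ribosome and metabolic genes, had 164, 1090, 1369 and 1297, a log2 difference of 3.06 ± 0.07. Nr4a3, an orphan nuclear receptor, had 6.98, 99.4, 111 and 102, a difference of 3.99 or 1.83 with normexp, and Nr4a2 had 9.70, 21.8, 36.1 and 28.4, under 2-fold (0.64) with normexp. Klf4, second in the list after Fosl1, was highest at 0.003%.

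The study's question concerns signals that leave the cell. Of 36 secreted growth factors compared, 15 were at least 2-fold higher and 6 lower. These counts were 13 and 7 with array median scaling, 10 and 11 with spike-in scaling, 13 and 6 with quantile normalization and 8 and 4 with normexp. The members were Vegfa, Areg and Adm, higher, and Wnt4, lower. Vegfa, the vascular growth factor, had signals of 29.6, 386, 412 and 283, a log2 difference of 3.80 ± 0.07, or 2.79 with normexp. Areg, amphiregulin, a ligand of the EGF receptor, had 747, 1920, 2468 and 2358, a log2 difference of 1.72 ± 0.20. Adm, the vasodilator adrenomedullin, was not well above background in the control and at least 4.94-fold higher, level with 0.009%, but 1.74-fold with normexp. Wnt4, a ligand of kidney tubule formation, had 260, 111, 102 and 139, a log2 difference of -1.35 ± 0.21.

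On the receiving side several members were lower. Egfr, the receptor of amphiregulin, had signals of 522, 248, 220 and 224, a log2 difference of -1.24 ± 0.20. Fgfr1, a receptor of fibroblast growth factors, had 88.6, 53.1, 33.2 and 37.3, and Fzd1, a Wnt receptor, had 756, 472, 307 and 309. On the probes used by the rule, the middle and highest doses were nearly level in these 3 receptors. Fgfr1 was under 2-fold (-0.89) with normexp. S1pr2, a receptor of sphingosine 1-phosphate, had 422, 166, 121 and 152, with a wider margin of 0.33. These receptors, like the other genes in the report outside the gene lists and the rule for named genes, were chosen after their values were seen. Plaur, the urokinase receptor and a marker of tubule injury, was higher, at 276, 866, 997 and 835.

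A large group among the members had not been in any list. Many higher members make ribosomes in the nucleolus, so a list of ribosome biogenesis genes was drawn up from textbook knowledge after the members had been seen. It is not independent of them. Of 47 genes of this list on the array, all could be compared, 41 were at least 2-fold higher, none was lower, the median log2 difference was 1.47, and 19 were members. This median was the same at 0.003% (1.46) and lower at 0.009% (0.95). The count of genes at least 2-fold higher ranged from 20 with spike-in scaling to 40 with quantile normalization, and the count of members from 0 to 20 with the same pair.

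Within this group Gtpbp4, a GTPase of the large subunit's assembly, had signals of 284, 1698, 1846 and 1093, a log2 difference of 2.70 ± 0.20. Rrs1, an assembly factor that brings in the 5S particle, had 104, 511, 597 and 398, a log2 difference of 2.51 ± 0.20. Nop58 and Nop56, core proteins of the particles that methylate ribosomal RNA, had 1836, 9396, 9990 and 7260, and 572, 2852, 3052 and 2493. Gnl3, the nucleolar GTPase nucleostemin, had 2758, 12827, 14158 and 12156. Polr1d, a subunit of RNA polymerases I and III, had 400, 916, 1085 and 917, with the widest margin of the 19, 0.24. The ribosomal proteins themselves moved less: none of 36 was 2-fold from the control, with a median of 0.50 beside -0.007 for all named genes. With spike-in scaling, which lowers all genes, these medians were -0.07 and -0.58.

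A second list drawn up in the same way held splicing factors. Of 32 compared, 15 were at least 2-fold higher and 1 lower, with 13 members and a median of 0.70. This median was 0.78 at the lowest dose and 0.74 at the highest, so the list as a whole was not largest at the middle dose. With array median scaling 7 were higher and with spike-in scaling 4, with no member in either, and quantile normalization and normexp each left 8 members. Sfpq, a splicing factor of paraspeckles, had signals of 820, 3108, 3230 and 2703, a log2 difference of 1.98 ± 0.20. Srsf5, Tra2b, Ddx5 and Arglu1 were also higher members, with log2 differences of 1.28, 1.17, 1.12 and 1.77. Snrnp35, a part of the minor spliceosome, was the lower one, at 428, 212, 195 and 226.

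**Figure D3:**
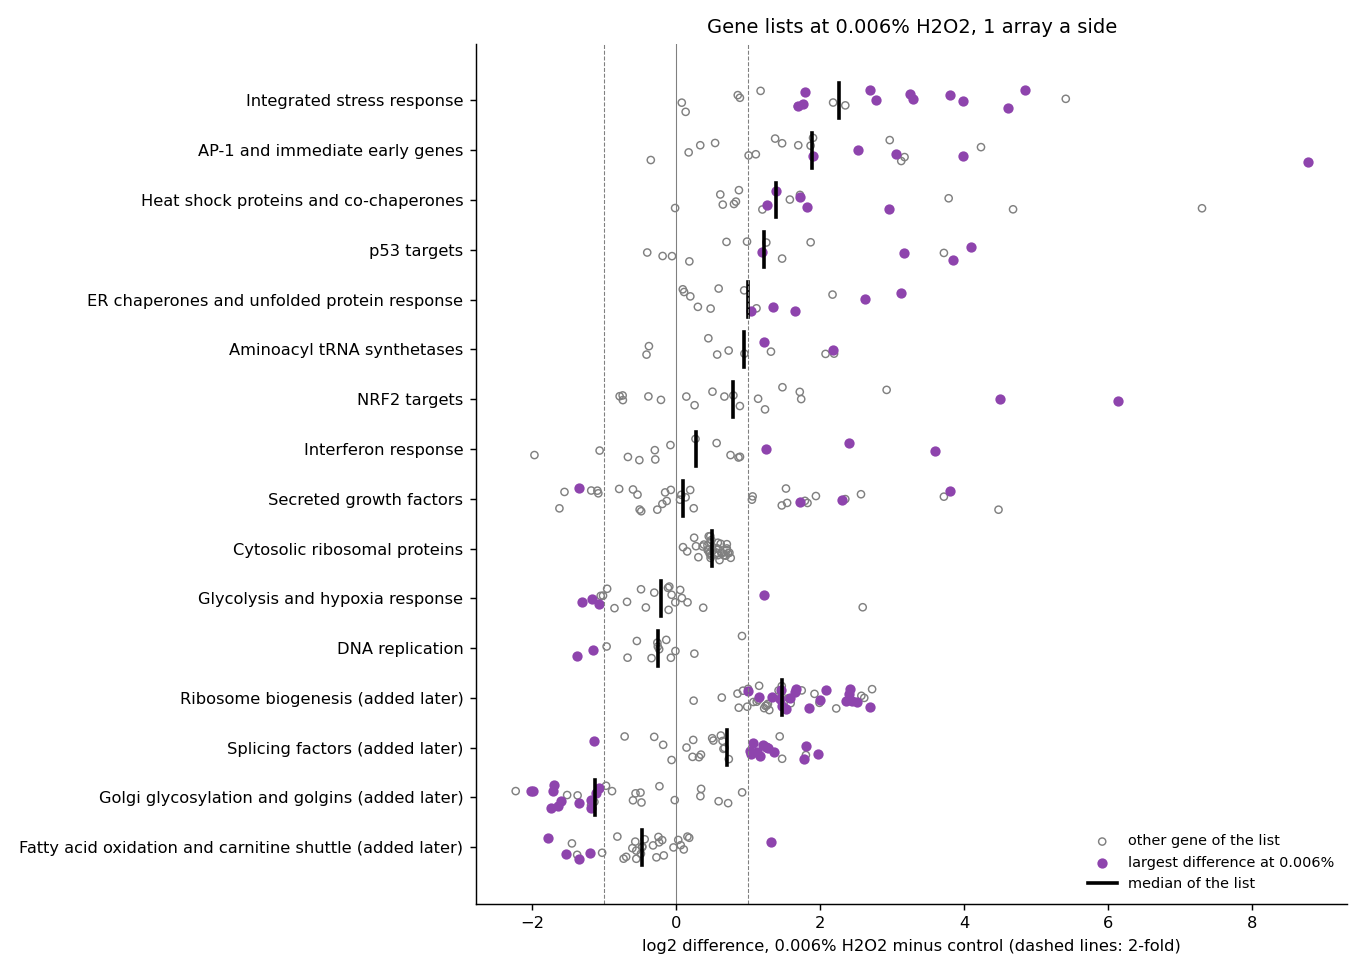
log2 difference between 0.006% H2O2 and the control for the compared genes of 16 lists, each point 1 gene and each bar the median of its list; filled points are member genes, whose largest difference fell at 0.006%, and dashed lines mark 2-fold. The integrated stress response and ribosome biogenesis lie almost wholly to the right of 0 and the Golgi list mostly to the left; the 4 lists marked as added later were drawn up after the members had been seen.

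The lower members were smaller in range than the higher ones. No measured difference of a lower member passed 8-fold, while 24 members were more than 8-fold higher. Of the lower members 8 were more than 4-fold lower, and their median was -1.31. Cdc42ep2, an effector of the GTPase Cdc42 that shapes the actin cytoskeleton, had signals of 1228, 262, 230 and 263, a log2 difference of -2.42 ± 0.20. Plbd2, a lysosomal phospholipase-like protein, had 2399, 548, 499 and 654, and Gpnmb, a glycoprotein of lysosomes and melanosomes, had 5707, 1457, 1371 and 1577. The serotonin receptor subunit Htr3b was not well above background at 0.006% and at least 7.70-fold lower, a bound whose true value may pass 8-fold, and its log2 difference with normexp was -1.01.

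Only 3 lower members lay beyond both other doses by more than 2 spot errors. Ccdc71, a coiled-coil protein, had signals of 36.9, 19.4, 11.8 and 18.9, a log2 difference of -1.65 ± 0.29 with a margin of 0.68. Ppp2r5b, a regulatory subunit of the phosphatase PP2A, had 154, 101, 69.5 and 94.1, a log2 difference of -1.15 ± 0.21 with a margin of 0.44. In both genes 0.003 and 0.009% were level and the middle dose lay under them, but with normexp their differences of -0.62 and -0.88 were under 2-fold. Cpt1a, the enzyme that commits fatty acids to oxidation in mitochondria, had 320, 160, 140 and 157, a log2 difference of -1.19 ± 0.06 with a margin of 0.17.

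Enzymes of the Golgi were frequent among the lower members, and a list of Golgi glycosylation enzymes and golgins was drawn up after this had been seen. Of 30 genes compared, none was at least 2-fold higher and 17 were at least 2-fold lower, with 12 members and a median of -1.12, beside -1.04 at 0.003% and -0.84 at 0.009%. Xylt2, which starts the sugar chains of proteoglycans, had signals of 285, 92.3, 70.6 and 89.8, a log2 difference of -2.01 ± 0.21. St6gal1, a sialyltransferase, had 269, 91.0, 86.4 and 104. Golgb1, the large golgin giantin, had 2689, 943, 810 and 983, and Golga2, the golgin GM130, had 1562, 824, 691 and 850. Between 14 and 23 genes of this list were at least 2-fold lower with the other scalings and background correction. Its 12 members were 12 with array median scaling, 11 with quantile normalization, 7 with normexp and 0 with spike-in scaling.

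The last added list held fatty acid oxidation and the carnitine shuttle, with 7 of 31 genes at least 2-fold lower and 1 higher at a median of -0.47. This median was -0.77 at the lowest dose and -0.13 at the highest, so the list as a whole was not largest at the middle dose. The lower genes were 10 with array median scaling, 18 with spike-in scaling, 7 with quantile normalization and 6 with normexp. In that order the list had 4, 0, 5 and 4 members, beside 5 with the main scaling. Besides Cpt1a, the lower members were Crot, which makes carnitine esters in peroxisomes, Mlycd, which removes the malonyl-CoA that inhibits CPT1, and the fatty acid transporter Slc27a1. Mlycd had signals of 471, 154, 137 and 152, a log2 difference of -1.78 ± 0.20. Cpt1b, the muscle form of CPT1, was the higher one, at 391, 695, 978 and 918. Of 22 glycolysis and hypoxia genes, Hk1, Pfkl and Tpi1 were lower members. Hk1, a hexokinase, had 2258, 1366, 1007 and 1228, while Hk2 was higher, at 9.60, 60.1, 57.9 and 26.9, and highest at 0.003%.

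Some regulators of growth and identity were also among the lower members. They were not counted as a group, and Myc was a higher member. Id1 and Id3, inhibitors of basic helix-loop-helix factors that follow BMP signals, had signals of 3437, 1408, 935 and 1030, and of 3131, 1061, 1000 and 1412. Nr3c1, the glucocorticoid receptor, had 649, 276, 252 and 255, a log2 difference of -1.37 ± 0.06. Ccnd3, a G1 cyclin, had 363, 201, 162 and 204, and the replication genes Pola2 and Rfc2 had log2 differences of -1.38 and -1.15. Of 14 DNA replication genes compared, these 2 were the only ones at least 2-fold lower, and none was higher. With normexp Pola2 (-0.34), Rfc2 (-0.99) and Ccnd3 (-0.97) were under 2-fold.

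Of 28 cell death genes compared, 5 passed 2-fold upwards and 4 downwards, with a median of 0.003, while 14.8 and 8.03% of all named genes did so. Under spike-in scaling 2 were higher and 10 lower, under normexp 2 and 0, and the members were Casp12 and Hrk, higher, and Bmf and Birc3, lower. Bmf, a BH3-only protein that binds BCL2, had signals of 141, 169, 50.4 and 61.7, so it was above the control at 0.003% and under it at 0.006%, with a log2 difference of -1.49 ± 0.21. Birc3, an inhibitor of apoptosis, was lower, from 24.8 to not well above background at 0.006%. Casp12, an ER-linked caspase, had 96.7, 150, 194 and 161, and Hrk, another BH3-only protein, was at least 3.59-fold higher. With normexp none of these 4 members was 2-fold from the control, with log2 differences of -0.98 for Bmf, 0.76 for Casp12, 0.59 for Hrk and -0.22 for Birc3.

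For genes with more than 1 probe, the probes not used by the rule gave a separate reading from the same RNA. Of 66 other probes of higher members, 64 differed from the control in the same direction at 0.006% and 33 (50%) were also largest at 0.006%. Of 125 other probes of the remaining higher genes, 21 (16.8%) were largest at 0.006%. For the lower genes the probes largest at 0.006% were 10 of 33 (30.3%) in members and 9 of 63 (14.3%) in the rest. Fewer probes of lower members were in the same direction, 28 of 33 (84.8%) against 61 of 63 (96.8%) in the rest. Of those 33 probes, 16 were at least 2-fold lower. Probes of 1 gene share the same cultures and arrays, so this bears on the reading and not on the spread between cultures.

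Some members were read by 10 spots on each array, which gave the spread of a reading directly. The median SD over spots was between 0.071 and 0.077 on the log2 scale. Hmox1 had 5.22 ± 0.07 (SD, 9 spots), 5.80 ± 0.06 (10 spots) and 5.76 ± 0.07 (10 spots) at 0.003, 0.006 and 0.009%, as log2 signal over the 75th percentile, so the middle and highest doses overlapped. Cpt1a had 0.67 ± 0.06, 0.49 ± 0.06 and 0.65 ± 0.06 over 10 spots each. Cebpb had 1.77 ± 0.06, 2.04 ± 0.07 and 1.94 ± 0.08. Cdkn1a had 5.52 ± 0.04, 5.52 ± 0.03 and 5.13 ± 0.03. For Cpt1a, Cebpb, Myc and Vegfa the middle dose lay from each neighbour by more than the SD of either dose. Of these genes, only Cpt1a had ranges of mean ± SD apart from both neighbours. In Cebpb, Myc and Vegfa the range overlapped that of the nearer dose. The nearer gap was 0.17 in Cpt1a, 0.09 in Cebpb and 0.08 in Myc, each to 0.009%, and 0.09 to 0.003% in Vegfa. For Cdkn1a the middle dose stood apart from 0.009% but not from 0.003%.

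**Figure D4:**
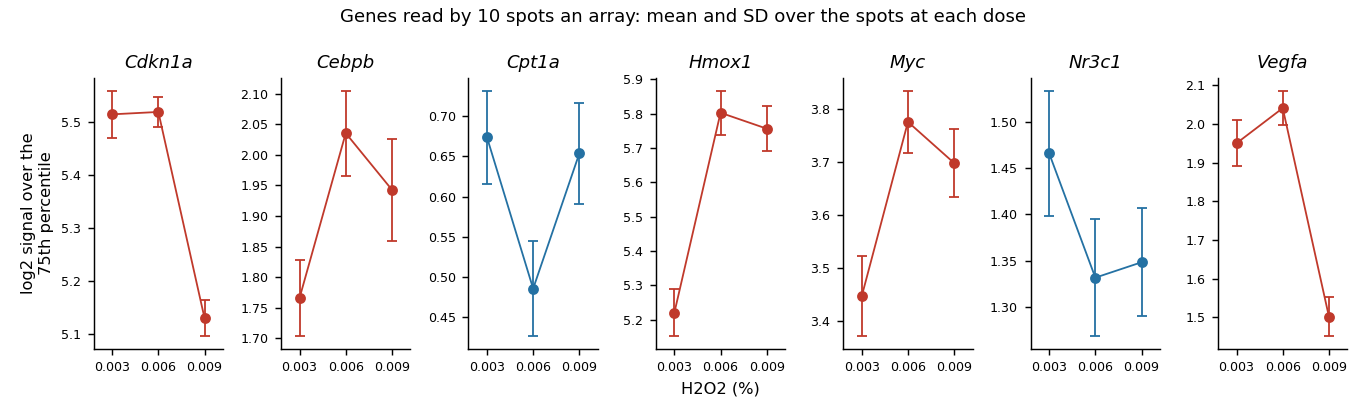
Mean and SD over the spots (9 or 10) of 7 member genes at 0.003, 0.006 and 0.009% H2O2, as log2 signal over the array's 75th percentile; each panel has its own axis and the control is not shown. Cpt1a has its extreme at 0.006% with ranges of mean ± SD apart from both other doses. Cebpb, Myc and Vegfa have theirs by more than the SD of either dose, with ranges that overlap the nearer dose. Cdkn1a is level between 0.003 and 0.006%, and Hmox1 and Nr3c1 are within an SD between 0.006 and 0.009%.

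Which genes peaked at the middle dose depended on how the arrays were put on a common scale. At 0.006% the median over all compared features lay lower than with the main scaling by 0.31 with array median scaling and by 0.57 with spike-in scaling, so differences are stated relative to the 75th percentile. The share of higher genes among features at least 2-fold from the control was 58.7%, and 34.1% with array median scaling, 18.7% with spike-in scaling, 50.3% with quantile normalization and 53.7% with normexp background correction. Of the 272 higher members, 200 were also members with quantile normalization, 109 with array median scaling, 122 with normexp and 38 with spike-in scaling. Of the 137 lower members these numbers were 126, 76, 66 and 11.

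Members under all 4 alternatives were 13 higher and 2 lower genes, while 60 higher and 8 lower ones were members under none. The higher ones were Hmox1, Ppp1r15a, Ptgs2, Tacr2, Plk2, Gadd45a, Prdm4, Rsad2, Slfn4, Ly49i2, Rbm34, Tmem39a and Fhl2. Prdm4, a zinc finger factor that binds the neurotrophin receptor p75, had signals of 13.2, 60.7, 83.6 and 63.4. Rbm34, a nucleolar RNA-binding protein, had 47.7, 138, 183 and 136, and Fhl2, a LIM cofactor, had 39.7, 89.2, 123 and 111. The lower ones were Foxp1, a forkhead repressor, at 6376, 2680, 2553 and 4781, and Zfp467, a zinc finger factor of mesenchymal cell fate, at 2942, 1054, 945 and 1539. Rsad2 kept a margin of at least 0.69 and a difference of at least 1.36 under these 4 alternatives. The lowest margin passed the median spot error of 0.20 only in Rsad2, Slfn4 (0.40), Ly49i2 (0.25) and Tmem39a (0.21). It was smallest in Gadd45a (0.005), Ppp1r15a (0.009), Zfp467 (0.029) and Rbm34 (0.031). The other probe of Rbm34 was largest at the lowest dose (2.56, beside 2.33 at the middle dose). The same held for Zfp467 (-1.07, beside a bound of -0.64). The other probe of Tmem39a was largest at the middle dose.

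**Figure D5:**
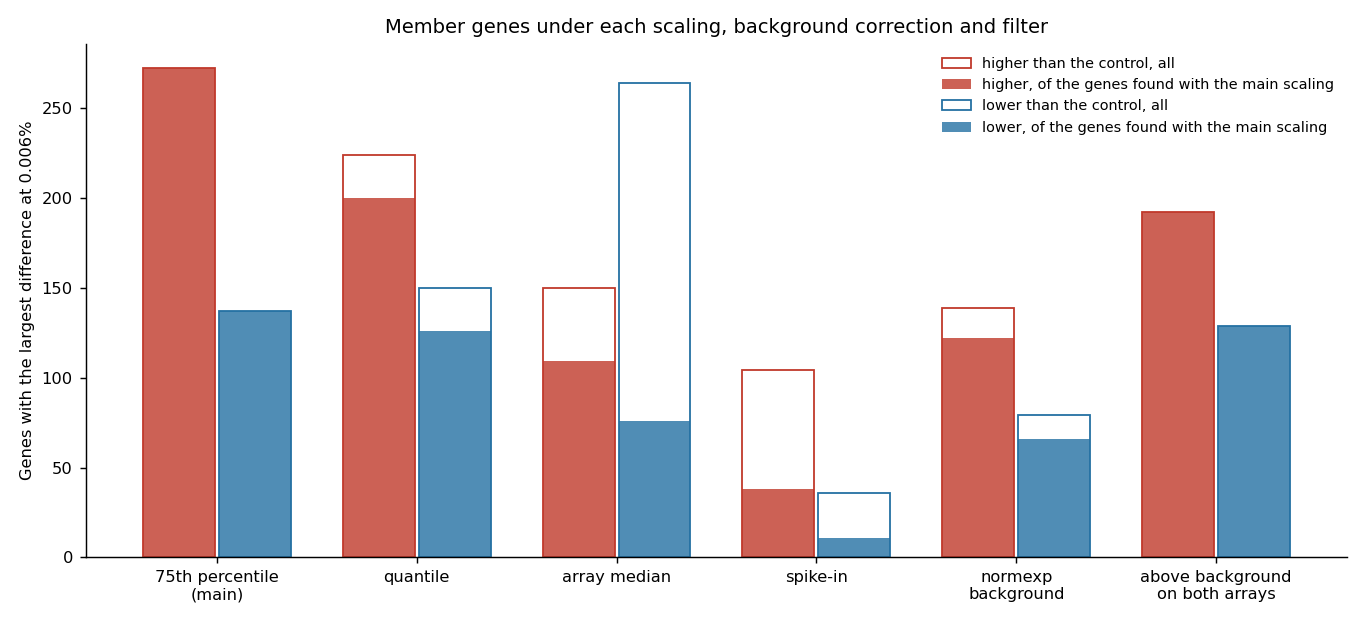
Number of genes whose largest difference fell at 0.006% under the main scaling and 5 alternatives, higher (red) and lower (blue) than the control; the filled part of a bar counts genes that were also members under the main scaling. Quantile normalization kept 200 of the 272 higher members and spike-in scaling kept 38, and array median scaling gave 264 lower genes against 137.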

How the data were processed

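Total RNA of 4 NRK-52E cultures was read on 1-colour (Cy3) Agilent arrays, 1 per dose, of array design 014879. Per the file headers, the authors read the slide with Agilent Feature Extraction 10.7.3.1, whose processed spot signal is a linear intensity after background subtraction and detrending, with no scaling between arrays. The authors' value table, also deposited, was a linear ratio of each probe's mean signal to the array median, matched in 100% of probes within 1e-06, and served as an alternative.

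Spots flagged as outliers were left out, log2 signals of a probe's spots were averaged, and the log2 of each array's 75th percentile was subtracted. Probes were named through their RefSeq accessions (10834 probes, 26.4%, and 8963 genes). For a gene with several probes, the brightest that passed background on any array was used. Where a probe did not pass on a side, the array's lowest passing signal stood in unless the probe's own value exceeded it, and such a difference is written "at least". With 1 array per dose no p-value was computed, the number of arrays limits the precision, and 2-fold is a rule of size.

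The members, 33 gene lists, tests and alternatives were chosen with earlier results of these data known, and 4 further lists and 1 motif after the members had been seen. Genes named were up to 15 members in each direction with the widest margin above 2 spot errors on all 4 arrays, the 10 most extreme members in each direction, up to 5 genes per list and 8 fixed genes; others are said to be chosen later. Promoters (4613 matched by symbol) were RefSeq's on GRCr8. Alternatives were array median, spike-in (8 probes) and quantile scaling, normexp (limma 3.58.1, R 4.3.3, offset 50), filters, fold rules, probe means and margins. The files hold no mean signal column, so normexp used the median signal. The classing was run on simulated data (python 3.11.15, numpy 2.4.6, pandas 2.3.3) with wide planted peaks and every probe above background. That run checks the code and does not bear on margins as narrow as those of most members. A few genes are not reported here.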

Additional observations from a re-analysis of the deposited data

How the results depend on the processing

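No paired analysis was possible because each dose had 1 array, and for the same reason no replicate could be left out. Counts at 0.006% were 3072 features higher and 2165 lower, and 272 member genes higher and 137 lower. In that order they were 1955, 3782, 150 and 264 under array median scaling, 1298, 5655, 104 and 36 under spike-in scaling, 1214, 1048, 139 and 79 after normexp, and 1955, 3782, 150 and 263 with the deposited table. Quantile normalization (2496, 2469, 224 and 150), a filter for both arrays above background (2233, 1872, 192 and 129) and keeping outlier spots (3072, 2165, 271 and 138) moved each count by less than 1.5 times, and averaging all probes of a gene gave 272 and 123 members. A 1.5-fold rule gave 384 higher and 348 lower members and a 3-fold rule 135 and 32. A margin above 2 spot errors left 19 and 3. A margin above 2 measured spot spreads on all 4 arrays, chosen after seeing the data, left 47 and 37. Among the 143 genes named by the rule and the 33 first lists, no value or median called at 2-fold changed its sign. The other genes were not checked for this. The median difference of all compared features shifted by -0.31, -0.57, -0.07 and -0.06 with array median, spike-in, quantile and normexp processing, and the cause was not tested. How much RNA was labelled, and how much spike-in each sample received, is not given here. Of the 22 clear members, 18 stayed members with array median scaling, 15 with spike-in scaling, 21 with quantile normalization and 8 with normexp. Signals near background limit the 80 higher and 8 lower members whose difference is a bound.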
